A study of Homo sapiens with 9 samples.

Results

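The 10 genes described here encode surface proteins, and 1 enzyme that makes a surface sugar, by which stem-like cells of the breast and of connective tissue are recognised. They are *CD44*, *CD24*, *PROM1*, *KIT*, *NT5E*, *THY1*, *ENG*, *ALCAM*, *CD9* and *HAS2*, and were picked by gene symbol out of the 60708 genes of the files, of which 60463 had a symbol. They were followed through counts of RNA reads in 9 libraries from untreated cells. The cells are given as MDA-MB-231, an established human breast cancer line of the triple-negative, basal type. Cells labelled WT gave 3 libraries, and so did each of CS16 and CS19, the *SNAI1*-KO clones, which were raised from single cells after plasmids for Cas9, a pool of *SNAI1* guide RNAs and homology-directed repair had been brought in together. *SNAI1* encodes a zinc-finger repressor that binds the DNA letters CAGGTG and is best known for shutting down epithelial genes. Each *SNAI1*-KO line is 1 clone, so clonal differences and the edit cannot be told apart, and the labels do not say whether the 3 libraries of a group came from separate cultures, so p-values measure only the spread between these libraries.

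Breast cancer cells that carry much CD44 and little or no CD24 on their surface seed tumours efficiently in mice, and this pair has served since as the standard gate for breast cancer stem cells. CD44 is the main receptor for hyaluronan, the long sugar chain that HAS2 spins out at the plasma membrane, and CD24 is a small, heavily glycosylated protein held by a lipid (GPI) anchor. PROM1 (CD133) sits on membrane protrusions, KIT is the receptor tyrosine kinase for stem cell factor and marks luminal progenitors of the mammary gland, and NT5E (CD73), THY1 (CD90) and ENG (CD105) together define mesenchymal stromal cells in culture. ALCAM (CD166) is an adhesion molecule of the immunoglobulin family and CD9 a tetraspanin that organises integrins and other membrane proteins.

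Because *SNAI1* was the target, its counts and the identity of the lines were examined first. The WT libraries held 16, 38 and 21 *SNAI1* counts, the CS16 libraries 26, 40 and 49 and the CS19 libraries 57, 94 and 94. The gene was thus not lower in the libraries labelled *SNAI1*-KO (log2 fold change 0.89, SE 0.42, adjusted p = 0.0838, and an adjusted p of 0.0146 with WT-2 left out). Counts summed over a gene do not show whether its transcript is intact. MDA-MB-231 is known for lacking *CDKN2A*, and *CDKN2A* and its neighbour *MTAP*, chosen after their values were seen, had 0 counts in all 3 WT libraries. In the 6 libraries labelled *SNAI1*-KO they had 1106 to 1575 and 2139 to 3137 counts, at least 1056-fold and at least 1981-fold more than the floor of 3 counts over the WT group. The edit, the cloning and a different origin of the cells cannot be told apart. Every comparison with WT below rests on these 6 libraries, which are therefore named by their labels. The libraries held 19527195 to 28627777 counted read pairs with a median of 21463266, and WT-2 stood apart, with a chi-square over degrees of freedom of 187.9 to WT-1 and 230.2 to WT-3, where the other pairs of libraries within a group had 4.776 to 18.13. Abundance is given below as CPM, counts per 1000000 counted pairs after TMM normalization.

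The promoters of 4 members are shown because these genes changed most or, for *ALCAM*, held the letters that SNAI1 binds. *PROM1*, which was too low to test, also held these letters and is not shown. Each run covers the 250 bases before and 50 after the RefSeq start of the gene on GRCh38.p14, read 5′ to 3′ on the gene's strand, with the general E-box CANNTG in capitals (CAGGTG and its reverse complement CACCTG are forms of it). The windows are chr11:35138921-35139220 (+) for *CD44*, chr6:85449833-85450132 (+) for *NT5E*, chr4:54657707-54658006 (+) for *KIT* and chr3:105366659-105366958 (+) for *ALCAM*.
CD44: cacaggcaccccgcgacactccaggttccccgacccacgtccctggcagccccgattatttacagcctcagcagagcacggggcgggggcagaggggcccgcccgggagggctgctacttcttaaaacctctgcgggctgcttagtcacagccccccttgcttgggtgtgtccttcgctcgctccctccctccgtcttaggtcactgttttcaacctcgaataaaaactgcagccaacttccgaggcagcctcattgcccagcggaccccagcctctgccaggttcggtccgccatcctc
NT5E: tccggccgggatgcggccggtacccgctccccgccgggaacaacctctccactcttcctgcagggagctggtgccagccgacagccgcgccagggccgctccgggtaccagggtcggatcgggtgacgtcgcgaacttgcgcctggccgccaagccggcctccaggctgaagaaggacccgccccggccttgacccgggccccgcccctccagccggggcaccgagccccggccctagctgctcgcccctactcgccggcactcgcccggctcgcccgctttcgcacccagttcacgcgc
KIT: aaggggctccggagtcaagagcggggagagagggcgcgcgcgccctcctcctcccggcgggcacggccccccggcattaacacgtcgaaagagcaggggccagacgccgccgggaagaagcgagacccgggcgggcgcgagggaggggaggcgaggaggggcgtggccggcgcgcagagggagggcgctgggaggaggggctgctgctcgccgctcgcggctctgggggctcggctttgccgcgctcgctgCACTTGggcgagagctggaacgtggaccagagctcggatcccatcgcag
ALCAM: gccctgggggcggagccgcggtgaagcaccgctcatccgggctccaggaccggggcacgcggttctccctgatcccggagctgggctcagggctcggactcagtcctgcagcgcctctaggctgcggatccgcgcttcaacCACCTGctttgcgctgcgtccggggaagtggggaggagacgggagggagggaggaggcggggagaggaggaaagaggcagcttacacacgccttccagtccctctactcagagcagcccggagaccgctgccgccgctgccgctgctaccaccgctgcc
CANNTG, searched on both strands, which for this palindrome is 1 search, was in neither the *CD44* nor the *NT5E* window. *KIT* held it once, at position 1 with the start base as 0, in the form CACTTG, and *ALCAM* once, at position -109, in the form CACCTG. Over all 35116 windows of this length, 68.7% held CANNTG and 20.6% held CAGGTG or CACCTG. Of the other members in the table, *PROM1* held CAGGTG or CACCTG 2 times, and *CD24*, *ENG* and *CD9* held neither. The box TATAAA, in 11.5% of all windows, was in none of the 8 members' windows. *THY1* and *HAS2* had no window in the table. These letters are a description of the windows and say nothing about binding.

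In the 6 libraries labelled *SNAI1*-KO against the 3 labelled WT, *CD44*, *NT5E*, *HAS2* and *CD24* fell and *KIT* rose past the cut-offs, a change of at least 2 on the log2 scale, up or down, with an adjusted p below 0.05. Thus 5 of the 8 tested members were called, where 26.9% of all 19631 genes tested were called, 12.6% higher and 14.3% lower. *ALCAM*, *ENG* and *CD9* were lower with an adjusted p below 0.05 but less than the fold cut-off, and by that p alone 8 of 8 passed, where 63.7% of all genes did. *PROM1* and *THY1* were filtered out as too low to test. The members' median log2 fold change was -1.92 and that of all genes -0.0040. The libraries of the groups did not overlap for 6 of the 8 tested members, against 58.4% of the 19561 tested genes with a symbol. For the untested *PROM1* and *THY1* they overlapped. Since these are whole-culture libraries, fewer cells with a transcript and less of it per cell cannot be told apart.

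**Figure D1:**
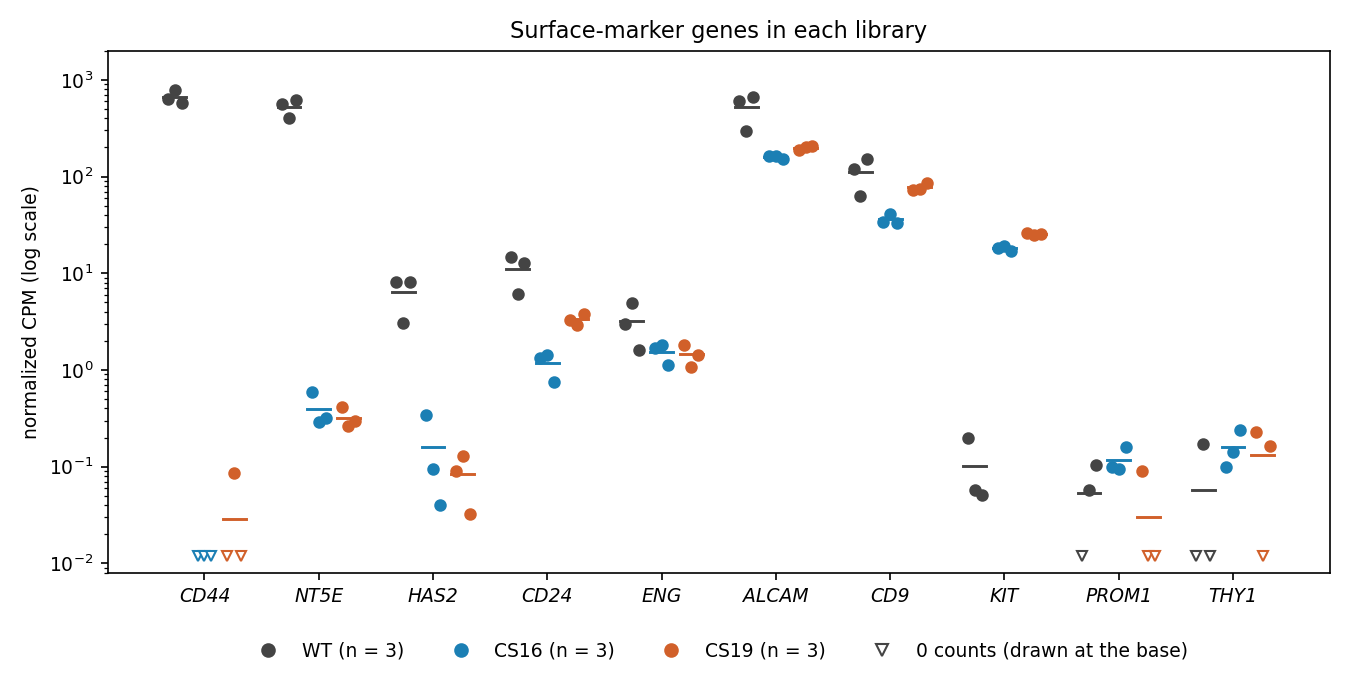
Normalized CPM (log axis) of the 10 members in each of the 9 libraries, with points for libraries, short lines for group means and open triangles for libraries with 0 counts. *CD44* and *NT5E* lie at 403 CPM or more in the WT libraries and below 0.6 CPM in all 6 libraries labelled *SNAI1*-KO, whereas *KIT* lies below 0.2 CPM in WT and above 17 CPM in the others.

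*CD44* (ENSG00000026508.20, plus strand of chromosome 11, 35138882 to 35232402 on GRCh38) had 12765, 13853 and 11142 counts in the WT libraries. It had 0 counts in CS16-1, CS16-2 and CS16-3, and 0, 2 and 0 in CS19-1 to CS19-3. The transcript was thus among the abundant ones in WT, at 665.4 ± 113.8 CPM (SD, n = 3), and was listed with next to nothing in both clones. For CS16, the floor of 3 counts over the group sets the fall at 14618-fold at the least (at least 14618-fold lower). In CS19, with 2 counts in all, the level was 24934-fold lower as a ratio of summed counts and not a bound, with an interval of 6902 to 205892 that covers counting error only. The log2 fold change of the edgeR fit was -15.04 (SE 0.40, adjusted p = 2.25e-10), and it was -16.84 without CS19-2, the library with the 2 counts. Fitted values at such counts depend on the prior count. Of the 9992 annotated exon bases of *CD44*, 84 overlap the antisense gene *CD44-AS1*. Counts per gene do not separate the splice forms of CD44, which depend in part on the epithelial splicing factor ESRP1. *ESRP1* itself was too low to test, at 0.0343, 0.126 and 0.0631 CPM in WT, CS16 and CS19.

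*HAS2* (ENSG00000170961.7), which synthesises the ligand of CD44, had 164, 54 and 159 counts in the WT libraries, 7, 2 and 1 in CS16 and 2, 3 and 1 in CS19. All WT libraries lay above all others, and 7 of the 16 counts of the clones were in CS16-1. The summed counts were 58.5-fold lower in the libraries labelled *SNAI1*-KO (counting interval 35.5 to 103; log2 fold change -5.74, SE 0.51, adjusted p = 1.53e-06). Its antisense gene *HAS2-AS1*, which shares 251 of the 4240 exon bases of *HAS2*, had 24, 8 and 15 counts in WT and at most 3 in any other library. Reads of such a pair cannot be told apart where strand was not used.

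The other genes of hyaluronan did not all follow *CD44*. Of 28 genes for hyaluronan synthesis, breakdown, binding and for partners of CD44, 22 were tested, 2 were called higher and 7 lower, with a median log2 fold change of -0.66. *CEMIP*, which drives hyaluronan breakdown, fell from 424 CPM in WT to 1.23 in CS16 and 1.16 in CS19 (log2 fold change -8.48, SE 0.24, adjusted p = 3.57e-10). *MMP14*, a membrane protease that sheds CD44, fell from 662 CPM to 0.761 and 0.797 (log2 fold change -9.72, SE 0.31). Moesin, encoded by *MSN*, ties the tail of CD44 to actin and fell from 910 CPM to 155 and 180 (log2 fold change -2.44, SE 0.14). Its relative ezrin (*EZR*) was lower by nearly as much, at a log2 fold change of -1.97 (SE 0.13), short of the cut-off, while *NF2*, which encodes the related protein merlin, rose from 25.1 CPM to 166 and 145 (log2 fold change 2.63, SE 0.26). The hyaluronan-binding matrix proteoglycan versican (*VCAN*) rose from 41 summed counts in WT to 14827, a ratio of 145.7 (counting interval 107 to 203; log2 fold change 7.22, SE 0.60). The second hyaluronan receptor, *HMMR*, had a log2 fold change of 1.63 (SE 0.36, adjusted p = 0.00203), below the cut-off. Its level was 24.1, 101 and 48.0 CPM in WT, CS16 and CS19. Against WT it was called in CS16 (log2 fold change 2.10, SE 0.27, adjusted p = 0.000461) and not in CS19 (1.03, SE 0.27, adjusted p = 0.0129). *HAS3* (log2 fold change -0.18, SE 0.29) and the hyaluronidase *HYAL2* (-0.05, SE 0.13) were not past the test, and *HAS1* was too low for it, with 35 summed counts in WT and 2 in the clones.

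*CD24* (ENSG00000272398.6, minus strand of chromosome 6, 106969831 to 106975627) was at 14.6, 6.06 and 12.9 CPM in the WT libraries, 1.33, 1.43 and 0.757 in CS16 and 3.32, 2.91 and 3.80 in CS19. The lowest of these values, that of CS16-3, rested on 19 counts. The 3 groups did not overlap, with WT highest and CS16 lowest, and WT-2 was the lowest of the WT libraries. The log2 fold change of *SNAI1*-KO against WT was -2.30 (SE 0.45, adjusted p = 0.000816). *CD24* has near-identical pseudogene copies, of which *CD24P2* had at most 1 count in any library, and pairs that fit several copies were removed by the authors' mapping-quality filter, so its counts are uncertain.

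The ratio of *CD44* to *CD24*, both as CPM per kilobase of annotated exon, was 13.4, 40.5 and 13.8 in the WT libraries. In the other libraries *CD44* lay at or under 3 counts, so the ratio has only an upper limit, which was 0.0310 to 0.0489 in CS16 and 0.00801 to 0.0139 in CS19. The highest upper limit was thus below every WT ratio. Both genes were lower in the clones, and the ratio of the transcripts passed from far above 1 to below 1. Levels of protein on the surface were not analysed here. Of 12 genes for receptors and partners of CD24 and THY1, 7 were tested, 0 were called higher and 5 lower, with a median log2 fold change of -2.81. They included *ADGRE5*, an adhesion receptor that binds THY1, which fell from 208 CPM to 4.80 in CS16 and 3.45 in CS19 (log2 fold change -5.65, SE 0.29), and the heparan sulfate proteoglycan *SDC4* (log2 fold change -3.89, SE 0.14).

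*KIT* (ENSG00000157404.16, plus strand of chromosome 4, 54657918 to 54740715) went the other way. It had 4, 1 and 1 counts in the WT libraries, 371, 404 and 428 in CS16 and 575, 575 and 769 in CS19. In CPM these were 18.2, 19.3 and 17.1 in CS16 and 26.2, 25.0 and 25.2 in CS19, and at most 0.198 in WT. The summed counts were 209.6-fold higher in the clones (counting interval 96.2 to 572; log2 fold change 7.63, SE 0.39, adjusted p = 1.72e-08). Without WT-1, which held 4 of the 6 WT counts, the log2 fold change was 8.51. No exon base of *KIT* was shared with another annotated gene.

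*KITLG*, which encodes the ligand of KIT, was expressed in all 9 libraries, at 57.5, 18.3 and 60.8 CPM in WT, 53.0, 61.3 and 52.3 in CS16 and 38.2, 40.3 and 41.7 in CS19 (log2 fold change 0.07, SE 0.32, adjusted p = 0.864). WT-2 was the lowest of the 9. The groups overlapped, and the log2 fold change was -0.31 without WT-2. Transcripts of receptor and ligand were therefore found together in both clones, and of the ligand nearly alone in WT. Of 27 genes for the KIT ligand and the signaling chain behind the receptor, all were tested, 0 were called higher and 9 lower, with a median log2 fold change of -0.89. *STAT5A*, a transcription factor that KIT activates, fell from 1135 summed counts in WT to 7, a ratio of 402 (counting interval 195 to 1003; log2 fold change -8.52, SE 0.56, adjusted p = 1.31e-07). Its close relative *STAT5B* had a log2 fold change of -0.22 (SE 0.15, adjusted p = 0.231). *SOCS1*, an inhibitor of cytokine and KIT signals, fell from 4.01 CPM to 0.125 and 0.152 (log2 fold change -4.78, SE 0.47).

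Other cell types that carry KIT were looked for by their markers. The 8 mast cell markers summed to 0.0514 to 0.515 CPM in WT, 0.335 to 0.589 in CS16 and 0.164 to 0.565 in CS19, 0 of 8 were high enough to test, and *TPSAB1*, *TPSB2*, *MS4A2* and *FCER1A* lay at or under 3 counts in every library. The 8 melanocyte markers summed to 31.3 to 44.0 CPM in WT, 21.6 to 23.3 in CS16 and 24.6 to 27.7 in CS19. Of these, 5 were tested, 1 was called higher (*DCT*, log2 fold change 2.38, SE 0.57, adjusted p = 0.00337) and 0 lower. *DCT* was also called in CS16 against WT (log2 fold change 2.63, SE 0.64, adjusted p = 0.00999). In CS19 against WT, 4 of the 8 were tested and 0 called. Their defining enzyme *TYR* was at or under 3 counts throughout. Of the 10 markers of luminal progenitors, which include *KIT* and *PROM1*, 6 were tested, 1 was called higher (*KIT*) and 3 lower, among them *KRT15*, at least 311-fold lower, and *CYP24A1*, 108-fold lower (counting interval 36.0 to 528). *ELF5*, the defining factor of these cells, was at or under 3 counts in every library. *KIT* was thus the only call in the higher direction among the tested genes of that list. The list summed to 26.7 to 33.7 CPM in WT, 27.8 to 30.8 in CS16 and 39.0 to 41.0 in CS19. *KIT* itself made up 17.1 to 19.3 CPM of this in CS16, 25.0 to 26.2 in CS19 and at most 0.198 in WT. The other markers of the list therefore summed to less in the clones than in WT.

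*NT5E* (ENSG00000135318.12, plus strand of chromosome 6, 85449584 to 85495791) encodes the surface enzyme that turns AMP into adenosine. It had 11420, 7038 and 12061 counts in the WT libraries, 12, 6 and 8 in CS16 and 9, 6 and 9 in CS19. Per length it was the highest of the 10 members in WT, and the clones had 50 counts in all. The summed counts were 1515-fold lower (counting interval 1149 to 2042; log2 fold change -10.52, SE 0.25, adjusted p = 1.3e-10).

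The steps before and after NT5E moved in both directions. Of 21 genes of the adenosine pathway, 15 were tested, 2 were called higher and 4 lower, with a median log2 fold change of -1.58. *ENTPD1* (CD39), which supplies the AMP, had a log2 fold change of 1.90 (SE 0.21, adjusted p = 1.08e-05), short of the cut-off, with 6.22, 24.2 and 22.3 CPM in WT, CS16 and CS19. *ENTPD3*, of the same enzyme family, fell from 278 summed counts to 11 (log2 fold change -5.86, SE 0.43). Alkaline phosphatases can also release adenosine, and here *ALPP* fell from 982 summed counts to 5, a ratio of 487 (counting interval 208 to 1505), while *ALPL* had 0 counts in WT and 326 in the clones, at least 43.8-fold higher. *ADA*, which breaks adenosine down, rose from 1.49 CPM to 13.3 and 13.2 (log2 fold change 3.15, SE 0.19). The receptor *ADORA2B* fell from 95.6 CPM to 22.8 and 20.8 (log2 fold change -2.13, SE 0.15), which was -1.93 and no longer called without WT-3, and *ADORA1* did not pass (log2 fold change -0.56, SE 0.31, adjusted p = 0.135).

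The other members of the stromal set were low in all libraries. *THY1* (ENSG00000154096.14) had 0, 3 and 0 counts in WT, 2, 3 and 6 in CS16 and 5, 0 and 5 in CS19, and shares 632 of its 6900 exon bases with *THY1-AS1*. The groups overlapped, and the ratio of summed counts, 2.82-fold higher in the clones, had a counting interval of 0.842 to 14.8. A difference in *THY1* was therefore not detectable at this depth. *ENG* (ENSG00000106991.14), a co-receptor for TGFβ and BMP ligands, had 60, 87 and 31 counts in WT, 34, 38 and 28 in CS16 and 40, 25 and 44 in CS19, or 2.97, 4.98 and 1.59 CPM, then 1.67, 1.82 and 1.12 CPM, and 1.82, 1.09 and 1.44 CPM. WT-3 lay among the libraries of the clones, and the log2 fold change was -1.09 (SE 0.33, adjusted p = 0.0139). With WT-2, the highest in *ENG*, left out, it was -0.62 with an adjusted p of 0.0955. An antisense gene covers 313 of the 3836 exon bases of *ENG*.

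Of the 14 other surface markers of mesenchymal stromal cells that matched a gene, 11 were tested, 2 were called higher and 5 lower, with a median log2 fold change of -0.90. *PDGFRB* fell from 18.0 CPM to 0.250 and 0.239 (log2 fold change -6.16, SE 0.50), whereas its relative *PDGFRA* went from 1 summed count in WT to 313 (ratio 126, counting interval 22.5 to 4997). Of 23 genes of the endoglin receptor complex, 20 were tested, 3 were called higher and 4 lower, with a median of -0.16. The type II receptor *TGFBR2* fell from 173 CPM to 5.82 and 9.15 (log2 fold change -4.53, SE 0.22, adjusted p = 1.28e-08). The BMP-side *SMAD9* and the inhibitor *SMAD6* rose, with log2 fold changes of 4.03 (SE 0.19) and 2.51 (SE 0.21). *ACVRL1* (ALK1), the type I receptor that endoglin works with in vessels, was too low to test, at 0.154, 0.367 and 0.232 CPM.

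*ALCAM* (ENSG00000170017.12, plus strand of chromosome 3, 105366909 to 105576900) kept a high level in all libraries, with 604, 297 and 668 CPM in WT, 164, 162 and 153 in CS16 and 190, 202 and 206 in CS19. The groups did not overlap, and WT-2 was the WT library nearest to the clones. *ALCAM* was lower in the clones by less than the fold cut-off (log2 fold change -1.54, SE 0.22, adjusted p = 7.91e-05). Of 18 related adhesion molecules, 15 were tested, 3 were called higher and 4 lower, with a median of -1.44. The neural adhesion molecule *NCAM1* went from 2 summed counts in WT to 6440 (ratio 1297, counting interval 359 to 10715), and *CADM1* from 41 to 22149 (ratio 217.7, counting interval 160.4 to 303). *VCAM1*, at 9.06 CPM in WT, had 3 counts in all in the clones (435-fold lower, counting interval 148 to 2117), and *L1CAM* fell from 194 CPM to 1.23 and 0.521 (log2 fold change -7.79, SE 0.51, and -6.94 without WT-2). *MCAM* (CD146) was lower by less than the cut-off (log2 fold change -0.90, SE 0.20, adjusted p = 0.00197).

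*CD9* (ENSG00000010278.15, plus strand of chromosome 12, 6199715 to 6238271) had 121, 63.5 and 152.8 CPM in WT, 34.3, 40.7 and 33.3 in CS16 and 72.7, 74.0 and 85.4 in CS19. CS16 lay below all other libraries, and CS19 lay between WT-2 and WT-1. The log2 fold change of *SNAI1*-KO against WT was -0.99 (SE 0.35, adjusted p = 0.0272). The adjusted p rose to 0.0738 without WT-1, 0.146 without WT-3 and 0.0545 without CS16-2.

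CD9 works in membrane complexes, and the transcripts of its direct partners differed widely. Of 32 tetraspanins and CD9 partners, 31 were tested, 7 were called higher and 11 lower, with a median of -0.64. *PTGFRN*, a partner that binds CD9 tightly, rose from 2.33 CPM in WT to 135 in CS16 and 151 in CS19 (log2 fold change 5.94, SE 0.24, adjusted p = 2.92e-09). The second such partner, *IGSF8*, did not pass (log2 fold change 0.18, SE 0.31), but had 0.79 with an adjusted p of 0.00391 without WT-2. The tetraspanin *CD81* did not pass either (log2 fold change -0.03, SE 0.22), with 171, 168 and 167 CPM in WT, CS16 and CS19, and 0.41 with an adjusted p of 0.00192 without WT-2. *CD63* and *CD151* were lower by less than the cut-off, at -0.66 (SE 0.16) and -1.59 (SE 0.14). *CD82* fell from 124 CPM to 2.34 and 3.49 (log2 fold change -5.41, SE 0.22), and *TSPAN7* had 0 counts in WT and 2860 in the clones, at least 384-fold higher. Of the laminin-binding integrins that tetraspanins hold, *ITGA3* fell from 2006 CPM to 5.81 and 13.5 (log2 fold change -7.69, SE 0.45) and *ITGA6* from 727 to 44.7 and 95.2 (log2 fold change -3.38, SE 0.32).

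*PROM1* (ENSG00000007062.12) had 0, 1 and 2 counts in WT, 2, 2 and 4 in CS16 and 2, 0 and 0 in CS19. With at most 4 counts in any library, no difference was detectable at this depth, and no fold is given. Its relative *PROM2*, found on epithelial protrusions, fell from 10.6 CPM to 0.351 and 0.270 (log2 fold change -5.05, SE 0.36), and the photoreceptor cadherin *CDHR1*, a partner of PROM1, went from 3 summed counts to 539 (ratio 72.4, counting interval 24.6 to 352). These were the only calls among the 6 tested genes of the prominin list, whose median was -0.999.

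Of 23 other surface and enzyme markers of breast stem and progenitor cells, all were tested, 4 were called higher and 12 lower, with a median log2 fold change of -2.06. *EPCAM*, the epithelial adhesion molecule that is gated with CD44 and CD24, fell from 19.3 CPM to 0.529 and 1.05 (log2 fold change -4.59, SE 0.35, adjusted p = 3.97e-07). The basal integrin *ITGB4* fell from 430 CPM to 0.887 and 1.59 (log2 fold change -8.42, SE 0.54, and -7.57 without WT-2), and the nerve growth factor receptor *NGFR* from 31.3 to 0.226 and 0.443 (log2 fold change -6.51, SE 0.36). *MME* (CD10) had 0 counts in WT and 679 in the clones, at least 91.2-fold higher, and the aldehyde dehydrogenase *ALDH1A1* went from 1 summed count to 193 (ratio 77.8, counting interval 13.8 to 3087). Of 29 genes that build the GPI anchor, on which CD24, THY1 and NT5E depend, 28 were tested, 3 were called higher and 0 lower, with a median of 0.33. The share called higher was near the 12.6% of all genes tested. *MPPE1*, which trims the anchor, and *PIGH*, which starts it, rose with log2 fold changes of 2.55 (SE 0.21) and 2.35 (SE 0.32), the latter 1.99 and not called without WT-2.

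Each clone was also set against the same 3 WT libraries, so that the results of both share their controls. In CS16, 5 of 8 tested members were called, 1 higher and 4 lower, against 27.1% of 18611 genes (11.8% higher and 15.3% lower). In CS19, 4 of 8 were called, 1 higher and 3 lower, against 26.4% of 18935 genes (12.0% higher and 14.4% lower). By adjusted p alone, 7 of 8 passed in CS16 and 6 of 8 in CS19, where 55.6% and 52.9% of all genes did. The call that differed was *CD24*, with a log2 fold change of -3.22 (SE 0.43, adjusted p = 0.000578) in CS16 and -1.70 (SE 0.35, adjusted p = 0.00497) in CS19. Without WT-2 the value of CS19 was -2.01 and called. *CD44* had fitted log2 fold changes of -16.73 (SE 0.49) and -14.29 (SE 0.62) in CS16 and CS19, *NT5E* -10.34 (SE 0.39) and -10.63 (SE 0.35), *HAS2* -5.31 (SE 0.70) and -6.19 (SE 0.62), and *KIT* 7.39 (SE 0.42) and 7.89 (SE 0.40). That of *HAS2* in CS16 was -6.48 without CS16-1, that of *CD44* in CS19 was -16.80 without CS19-2 and -13.62 without CS19-3, and those of *KIT* were 8.26 and 8.75 without WT-1. *ALCAM* stayed below the cut-off in both, at -1.68 (SE 0.30, adjusted p = 0.00255) and -1.35 (SE 0.30, adjusted p = 0.00714). *CD9* had an adjusted p of 0.00377 in CS16, with a log2 fold change of -1.61 (SE 0.32), and of 0.211 in CS19, with -0.50 (SE 0.31), which became -0.80 with an adjusted p of 2.64e-06 without WT-2. *ENG* did not pass in either, at -1.03 (SE 0.45, adjusted p = 0.0914) and -1.09 (SE 0.45, adjusted p = 0.0753), but did in both without WT-3, at -1.33 and -1.40.

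**Figure D2:**
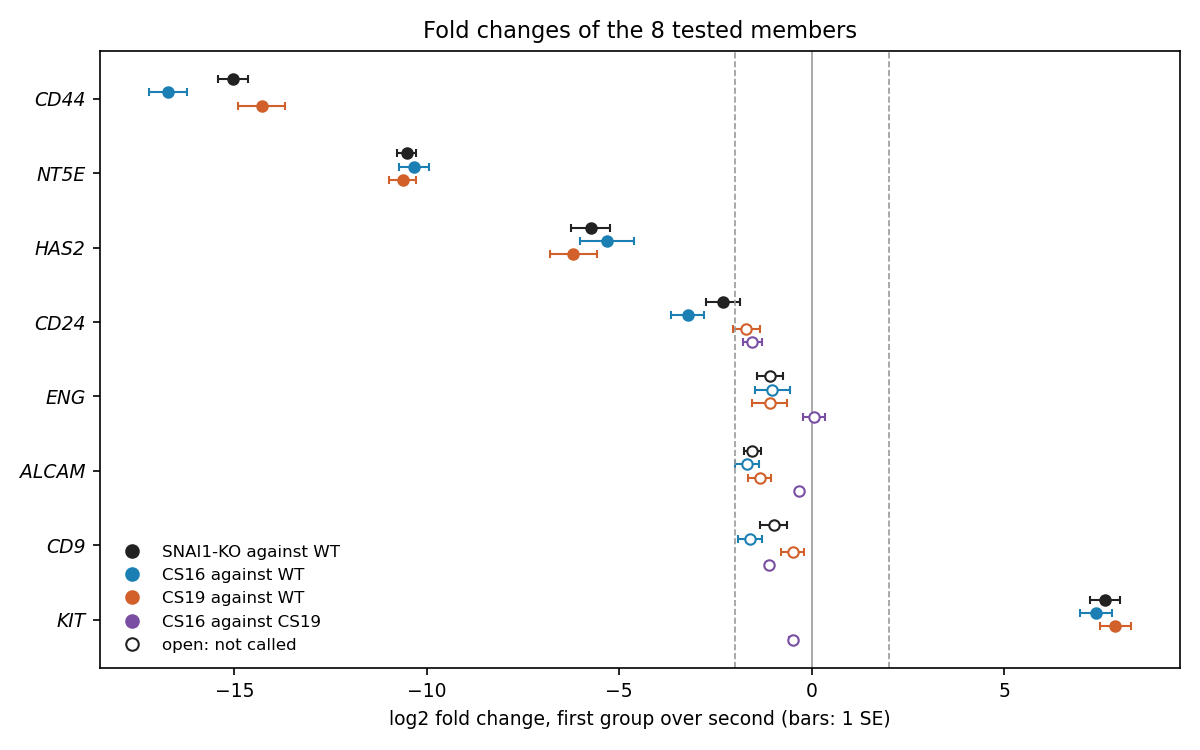
Log2 fold changes of the members in the 4 comparisons (first group over second, bars 1 SE), with filled points for called genes, open points for genes not called and dashed lines at the fold cut-off. *CD44*, *NT5E* and *HAS2* lie far to the left and *KIT* far to the right in all 3 comparisons with WT, and the 5 members tested between the clones lie within 2 of 0.

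Between the clones themselves, CS16 against CS19, 5 members were high enough to test and 0 were called, where 1.13% of 17538 genes were called (0.633% higher and 0.496% lower in CS16). By adjusted p alone, 4 of the 5 passed, where 27.4% of all genes did, and all 4 were lower in CS16. *CD9* differed with a log2 fold change of -1.11 (SE 0.09, adjusted p = 1.72e-06), *CD24* with -1.54 (SE 0.25, adjusted p = 0.000492), *KIT* with -0.49 (SE 0.08, adjusted p = 0.000764) and *ALCAM* with -0.32 (SE 0.06, adjusted p = 0.00164). For each of these 4 genes the 3 libraries of one clone lay wholly below those of the other. In a shared fit of the 3 groups, in which the wider spread of the WT libraries enters, the adjusted p values were 0.0657, 0.0597, 0.282 and 0.714 in the same order. *ENG* had a log2 fold change of 0.06 (SE 0.29, adjusted p = 0.901). *CD44*, *PROM1*, *NT5E*, *THY1* and *HAS2* were filtered out there as too low.

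Levels of different genes were compared as CPM per kilobase of annotated exon. In WT the order was *NT5E* (116.7 ± 24.9), *ALCAM* (72.9 ± 27.6) and *CD44* (66.6 ± 11.4), whose ranges overlapped each with the next, then *CD9* (19.3 ± 7.76), *CD24* (3.61 ± 1.45), *HAS2* (1.52 ± 0.688) and *ENG* (0.829 ± 0.444), the last pair overlapping, with *KIT*, *THY1* and *PROM1* below 0.02 (SD, n = 3 each). In CS16 it was *ALCAM* (22.3 ± 0.820), *CD9* (6.19 ± 0.693) and *KIT* (3.27 ± 0.202), none overlapping, then *ENG* (0.400 ± 0.0963) and *CD24* (0.379 ± 0.117), which did. In CS19 it was *ALCAM* (27.8 ± 1.18), *CD9* (13.3 ± 1.20), *KIT* (4.58 ± 0.115), *CD24* (1.08 ± 0.144) and *ENG* (0.378 ± 0.0959), none overlapping with the next. *NT5E* passed from first place to below 0.1, and *CD44* from the third place to the last in CS16. In CS19 *CD44* and *PROM1*, with 2 summed counts each, overlapped at the bottom and their order was not resolved. *KIT*, with 4, 1 and 1 counts in WT, overlapped there with *THY1* and *PROM1*, so its eighth place was not resolved. It stood in the third place in both clones.

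The genes whose log2 CPM ran most like that of *CD44* over the 9 libraries were *SNX19* (Pearson r = 0.9998), *CHST11* (0.9995) and *HS3ST1* (0.9993). Those most like *CD24* were *GLRB* (0.989), *ALG9* (0.987) and *ZNF440* (0.984), and those most like *KIT* were *BEND4* (0.9998), *LGI2* (0.9993) and *ZNF483* (0.9993). These values describe 9 libraries in 3 groups, in which any gene that separates WT from the clones scores high.

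Among markers of further cell types, more calls were lower than higher. Of 12 haematopoietic markers 4 were tested and 3 were called lower, among them *HLA-DRA* and *CD14*, and *CD3E*, *CD68*, *SPI1* and *TYROBP* were at or under 3 counts in every library. The summed level of that list was 49.2 to 88.4 CPM in WT, 3.35 to 4.22 in CS16 and 3.51 to 4.13 in CS19. Of 10 endothelial markers 4 were tested and 3 were lower, including *PECAM1* and *ESAM*, with sums of 61.9 to 95.0 CPM in WT and 3.19 to 4.56 in the clones. Of 10 fibroblast markers 6 were tested, 2 higher (*COL3A1* and *PDGFRA*) and 2 lower (*COL1A2*, at least 2575-fold, and *PDGFRB*), with sums of 58.6 to 127.7, 63.9 to 68.3 and 12.8 to 15.6 CPM in WT, CS16 and CS19. Of 10 mammary luminal markers 8 were tested, 1 was higher (*FOXA1*, 296-fold by summed counts, counting interval 81.8 to 2448) and 6 were lower, including *KRT8* (log2 fold change -8.32, SE 0.28) and *KRT19* (at least 9087-fold lower in CS16). Their sums were 1558 to 2237 CPM in WT and 229 to 274 in the clones. *FOXA1* differed between the clones, with 221 summed counts in CS16 and 1249 in CS19, ratios to WT of 95.1 and 473. Between CS16 and CS19 it was called, with a log2 fold change of -2.31 (SE 0.14, adjusted p = 1.03e-07). Of 10 mammary basal markers 7 were tested and 5 were lower, including *LAMB3* (log2 fold change -11.80, SE 0.27) and *TP63* (71 summed counts in WT and 2 in the clones), with sums of 904 to 1575 and 18.2 to 27.5 CPM. The part of these differences in the results above was not tested.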

How the data were processed

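The files held whole read-pair counts per gene and library, deposited by the authors without normalization. Per the paper and the file headers, 150-base read pairs of ribosome-depleted total RNA were trimmed with Trimmomatic 0.36, aligned to GRCh38.p13 with STAR 2.7.2b in 2 passes and counted on gencode release 38 with featureCounts of Subread 2.0.0, for pairs with both mates aligned, no chimera and a mapping quality of at least 30, without regard to strand. The length column of the same files gave exon lengths. Counts were tested with the quasi-likelihood test of edgeR 4.0.16 in R 4.3.3 (filterByExpr, TMM), with Benjamini-Hochberg adjustment over all genes tested, which is the source of every adjusted p. Standard errors were derived from the F statistic and the fold change. CPM used TMM factors, and 3 counts, the floor, were 0.0984 to 0.172 CPM. Counting intervals are exact, at 95%, and cover counting error only, as there were no molecular identifiers. Alternatives were DESeq2 1.42.0, RLE factors, other filters and cut-offs, a shared fit, a block and single libraries left out. In simulations on 35103 genes, edgeR and DESeq2 each recovered 200 of 200 changed genes with 0 false calls, for 6 against 3 and for 3 against 3 libraries. Whether these numbers hold at the spread of the WT libraries, or for genes with few counts, was not tested. Named genes were the members, partners fixed by name and, of each list, up to 2 genes called in each direction with the largest fold change and the same sign in both clones. Members and lists were chosen with earlier results of these data known, and lists were tested with no set test. List medians with genes at 0 counts in a group set to their bounds were the same. A marker gene is not reported here. Exon overlaps came from the deposited exon positions on which the read pairs were counted. The authors' tables of fold changes were not used, and protein sequences were not used here.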

Additional observations from a re-analysis of the deposited data

Results flagged for a closer look

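*CD44* had 2 counts, or 0.0869 CPM, in CS19-2 and 0 in the 5 other libraries labelled *SNAI1*-KO, so that any count above 0 would have set a library apart, and 2 counts lie under the floor of 3. *HAS2* had 0.344 CPM in CS16-1, above 0.130 CPM or less in the 5 others. Dixon's ratio picked out this library, as it does by chance in about 1 of 20 groups, and the value rests on 7 counts. Between the clones, the difference itself was tested for 5 members, and 4 passed by adjusted p without a call. The log2 fold changes of CS16 against CS19 were -1.54 for *CD24*, -0.49 for *KIT*, -0.32 for *ALCAM* and -1.11 for *CD9*.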

How the results depend on the processing

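The members called were the same in number under 60 of the 63 alternatives run over the 4 comparisons, or within 1.5 times the main number. By adjusted p alone, 8 members were called in *SNAI1*-KO against WT in place of 5 and 4 between the clones in place of 0, and with a log2 cut-off of 1, 2 were called between the clones (*CD24* and *CD9*). Over all genes, *SNAI1*-KO against WT gave 5272 calls, and 8662 with no filter, 12506 by adjusted p alone and 9251 with a log2 cut-off of 1. CS16 against WT gave 5045, then 10342 by adjusted p and 8567 with the lower cut-off, CS19 against WT 4990, then 7513, 10014 and 8309 in the order of the first comparison, and CS16 against CS19 198, then 352, 4814 and 833. Among the lists, GPI anchor synthesis had 1 call in place of 3 without WT-2, the melanocyte list 0 in place of 1 without WT-1, and the adenosine list 10 in place of 6 with no filter. By adjusted p alone the calls of the hyaluronan, KIT, adenosine, endoglin, ALCAM, prominin, GPI anchor and melanocyte lists were 17, 22, 13, 15, 14, 5, 20 and 2, and with a log2 cut-off of 1 those of the adenosine, endoglin, ALCAM, prominin and GPI anchor lists were 12, 11, 11, 4 and 10, which follows from the wider cut-offs. No fold change of a member that was called turned its direction. The log2 fold changes that changed sign were near 0. For *ENG*, CS16 against CS19, they ran from -0.0887 to 0.26 with single libraries left out (-0.00186 and -0.0704 within that range). In *SNAI1*-KO against WT, with a library left out, *KITLG* ran from -0.31 to 0.35 (-0.0116 without CS16-2), *HAS3* from -0.45 to 0.14, *HYAL2* from -0.13 to 0.0544, *IGSF8* from -0.0875 to 0.79 and *CD81* from -0.23 to 0.41. *HYAL2* was 0.0599 and *CD81* 0.0900 with no filter, and *CD81* was 0.00830 by DESeq2 and 0.0400 with the replicate block; the cause was not tested. With the replicate number as a block, the members called were 5, 5, 4 and 0 as before, and the adjusted p of *CD9* in *SNAI1*-KO against WT was 0.0527 in place of 0.0272. The numbers do not pair the libraries, since the deviations of same-numbered libraries correlated at -0.206 to 0.190. The log2 mean of the *CD44* to *CD24* ratio, as an upper limit, was -4.74 in CS16 and -6.48 in CS19, and -7.36 and -8.30 with a prior count of 0.5 in place of the 3-count floor. TPM gave the same order of members as CPM per kilobase in all 3 groups. Depth limits what can be said of *PROM1*, *THY1* and of *CD44* and *HAS2* in the clones.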
